A study of Homo sapiens with 12 samples.

Results

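TXNIP, the ARRDC genes and the transcription factor genes MLXIP and MLXIPL were described across 4 treatment groups of 786-O, a human cell line long established from a renal carcinoma. The genes were taken by symbol from the table of raw counts, and 8 of its 17085 genes were found: TXNIP, ARRDC1, ARRDC2, ARRDC3, ARRDC4, ARRDC5, MLXIP and MLXIPL. Of these, 6 passed the filter on low counts and were among the 12841 genes tested, whereas ARRDC5 and MLXIPL were close to absent and were not tested. The set was selected on fold changes between these treatment groups in the same libraries, so its differences are given as a description without p values.

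The cells were labelled wild type and were treated for 24 h with vehicle (DMSO), with 5 µM everolimus (EVER), an inhibitor of the kinase mTOR, with 1.5 µM SGI-1027 (SGI), which inhibits DNA methyltransferases, or with 5 µM everolimus and 1.5 µM SGI-1027 together (COMB). Each group held 3 libraries of 37046231 to 41516976 counts. The dose of everolimus alone is given as 5 µM in the treatment label of each library and as 10 µM in the protocol text, so a comparison of the combination with everolimus alone, and the interaction below, may set unequal doses of everolimus against each other. All groups come from 1 cell line, no source states that the 3 libraries of a group were separate cultures, so errors and p values measure the spread between these libraries, which may be technical. Every comparison with DMSO shares the same 3 DMSO libraries. As bulk RNA was sequenced, more RNA of a gene per cell and more cells with that RNA cannot be told apart.

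TXNIP and the ARRDC proteins are α-arrestins, adaptors that bring membrane proteins to ubiquitin ligases of the NEDD4 family and so to endocytosis. TXNIP also binds reduced thioredoxin and limits glucose uptake. Its gene and ARRDC4 are known targets of MondoA, encoded by MLXIP, which pairs with MLX, responds to glucose phosphates and binds carbohydrate response elements in promoters, and ChREBP, encoded by MLXIPL, is the paralog of MondoA best known from liver.

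RefSeq (GRCh38.p14) gave promoter windows for 7 of the 8 genes, 10 windows in all, of which the 250 bases before each annotated start were read. Of these, 3 are printed because they hold the searched motifs of carbohydrate response elements or forkhead factors. They are read 5′ to 3′ on the gene's strand, and capitals mark every match to CACGTG, to a spaced pair of E-box-like motifs, to TGTTTAC and to CCAAT on either strand. The TXNIP window lies at chr1:145996580-145996829 on the minus strand, the ARRDC4 window at chr15:97960453-97960702 on the plus strand and the ARRDC3 window, before the more downstream of its annotated starts, at chr5:91380098-91380347 on the minus strand.
TXNIP: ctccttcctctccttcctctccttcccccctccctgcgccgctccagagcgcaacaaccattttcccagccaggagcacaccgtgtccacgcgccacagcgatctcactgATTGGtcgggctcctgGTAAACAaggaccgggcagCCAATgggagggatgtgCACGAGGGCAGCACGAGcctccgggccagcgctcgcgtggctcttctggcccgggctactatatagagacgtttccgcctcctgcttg
ARRDC4: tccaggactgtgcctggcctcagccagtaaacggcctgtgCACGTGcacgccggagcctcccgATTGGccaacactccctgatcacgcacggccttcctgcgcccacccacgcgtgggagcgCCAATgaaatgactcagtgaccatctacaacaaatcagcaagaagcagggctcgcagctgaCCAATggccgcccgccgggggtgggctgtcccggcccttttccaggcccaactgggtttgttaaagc
ARRDC3: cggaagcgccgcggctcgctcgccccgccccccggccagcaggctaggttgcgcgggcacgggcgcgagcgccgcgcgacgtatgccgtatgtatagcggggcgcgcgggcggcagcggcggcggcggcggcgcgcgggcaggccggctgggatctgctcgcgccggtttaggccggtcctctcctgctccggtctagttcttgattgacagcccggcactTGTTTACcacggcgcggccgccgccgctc

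The TXNIP window held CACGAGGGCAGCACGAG at -88 to -72 from the start, a pair of E-box-like motifs of the form CACGNG or CNCGTG, in any orientation, 5 bases apart. Such a pair was present in 23 of 35116 RefSeq windows of this length (0.0655%), and among the 10 windows here only in this one. The ARRDC4 window held the E-box CACGTG, which also meets the definition of a motif of that pair, at -210 to -205, and 6.34% of all windows held one. TGTTTAC, a core that forkhead factors bind, was found in TXNIP at -124 to -118 and in ARRDC3 at -29 to -23, against 2.98% of all windows. CCAAT, the sequence bound by NF-Y, was present in 6 of the 10 windows here, against 32.0% of all windows. These were 1 window each of TXNIP, ARRDC1, ARRDC2, ARRDC3, ARRDC4 and MLXIP, of which TXNIP, ARRDC2 and ARRDC3 had 2 windows. A match describes letters of the reference and is not evidence of binding, which was not measured.

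TXNIP, the thioredoxin-interacting protein, had the largest differences from DMSO of the 6 tested genes with each single drug. Its CPM (counts scaled to a common library size with TMM factors) were 45.3, 47.7 and 49.6 in DMSO, 115.9, 103.9 and 111.8 with everolimus, 82.3, 88.2 and 90.4 with SGI-1027, and 89.9, 85.0 and 80.3 with both drugs. Every treated library was above every DMSO library, everolimus alone stood above all other groups, and the libraries with SGI-1027 alone and with both drugs overlapped. The fitted difference was 2.32-fold with everolimus (log2 fold change 1.22 ± 0.06 SE), 1.83-fold with SGI-1027 (0.87 ± 0.06) and 1.79-fold with both (0.84 ± 0.06). With both drugs TXNIP was lower than with everolimus alone by a log2 fold change of -0.38 ± 0.05. Against SGI-1027 alone the difference was -0.03, with a 95% interval of -0.15 to 0.08.

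ARRDC4, the α-arrestin that shares the response of TXNIP to glucose, was the lowest of the 6 tested genes. On the FPKM scale, which divides by gene length and so allows levels of different genes to be compared, its mean was 1.25 ± 0.08 (SD, n = 3) in DMSO against 14.9 ± 0.55 for TXNIP. The CPM of ARRDC4 were 5.04, 4.81 and 5.50 in DMSO, 6.89, 6.33 and 7.53 with everolimus, 7.41, 8.97 and 7.59 with SGI-1027, and 8.88, 8.85 and 9.15 with both drugs, from 188 to 353 counts per library. All treated libraries were above DMSO, and neighbouring treated groups overlapped. The log2 fold change from DMSO was 0.43 ± 0.11 (SE) with everolimus, 0.64 ± 0.10 with SGI-1027 and 0.81 ± 0.10 with both. On the log2(FPKM + 1) scale, which understates changes of low genes, these were 0.26, 0.39 and 0.52. The combination was above everolimus by 0.37 ± 0.10, and its difference from SGI-1027 was 0.17, with a 95% interval of -0.04 to 0.38.

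ARRDC1, which recruits the ESCRT machinery to the plasma membrane and drives the budding of vesicles there, was the single one of the 6 tested genes whose 4 groups did not overlap at any step. Its CPM were 28.9, 26.3 and 25.2 in DMSO, 32.4, 34.2 and 32.7 with everolimus, 34.7, 35.5 and 38.3 with SGI-1027, and 42.7, 44.1 and 44.6 with both drugs. The order from DMSO through everolimus and SGI-1027 to the combination held for every library. One step was narrow, from 34.2 in the highest everolimus library to 34.7 in the lowest SGI-1027 library. The share of all tested genes whose 4 groups were separate was not counted, so the pattern is not called particular to ARRDC1. The log2 fold changes from DMSO were 0.31 ± 0.06 (SE), 0.43 ± 0.06 and 0.71 ± 0.06, and the combination exceeded everolimus by 0.40 and SGI-1027 by 0.28.

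ARRDC2, an α-arrestin whose cargo is less well known, was higher than DMSO to a similar extent in all treated groups. The CPM were 17.0, 16.9 and 15.8 in DMSO, 25.5, 22.9 and 23.8 with everolimus, 21.3, 21.5 and 23.2 with SGI-1027, and 23.0, 21.4 and 24.4 with both. Every treated library of ARRDC2 was above DMSO, and the treated groups overlapped each other at each step of their order. The log2 fold changes from DMSO were 0.54, 0.41 and 0.47, each ± 0.07 (SE). The combination differed from everolimus by -0.07 (95% interval -0.21 to 0.07) and from SGI-1027 by 0.06 (-0.08 to 0.20).

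ARRDC3, an adaptor in the ubiquitination of the β2-adrenergic receptor and of integrin β4, had the highest FPKM of these genes in DMSO, at 22.6 ± 0.57 (SD, n = 3). Its CPM were 106.6, 112.9 and 113.4 in DMSO, 137.2, 135.5 and 135.6 with everolimus, 144.7, 135.1 and 141.7 with SGI-1027, and 108.8, 102.5 and 99.1 with both drugs. Either drug alone placed all 3 libraries above DMSO, while the libraries with both drugs lay below those of either single drug and overlapped DMSO. The log2 fold changes from DMSO were 0.29 ± 0.04 (SE) with everolimus and 0.34 ± 0.04 with SGI-1027, against -0.10 ± 0.04 with both. The combination was below everolimus by a log2 fold change of -0.40 and below SGI-1027 by -0.44. The small difference between the combination and DMSO passed the call threshold, but it lost the call under several alternatives, among them upper-quartile scaling (-0.05) and leaving out DMSO replicate 2 or 3, EVER replicate 1, 2 or 3, SGI replicate 2 or COMB replicate 2 or 3 (-0.10 to -0.07).

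**Figure D1:**
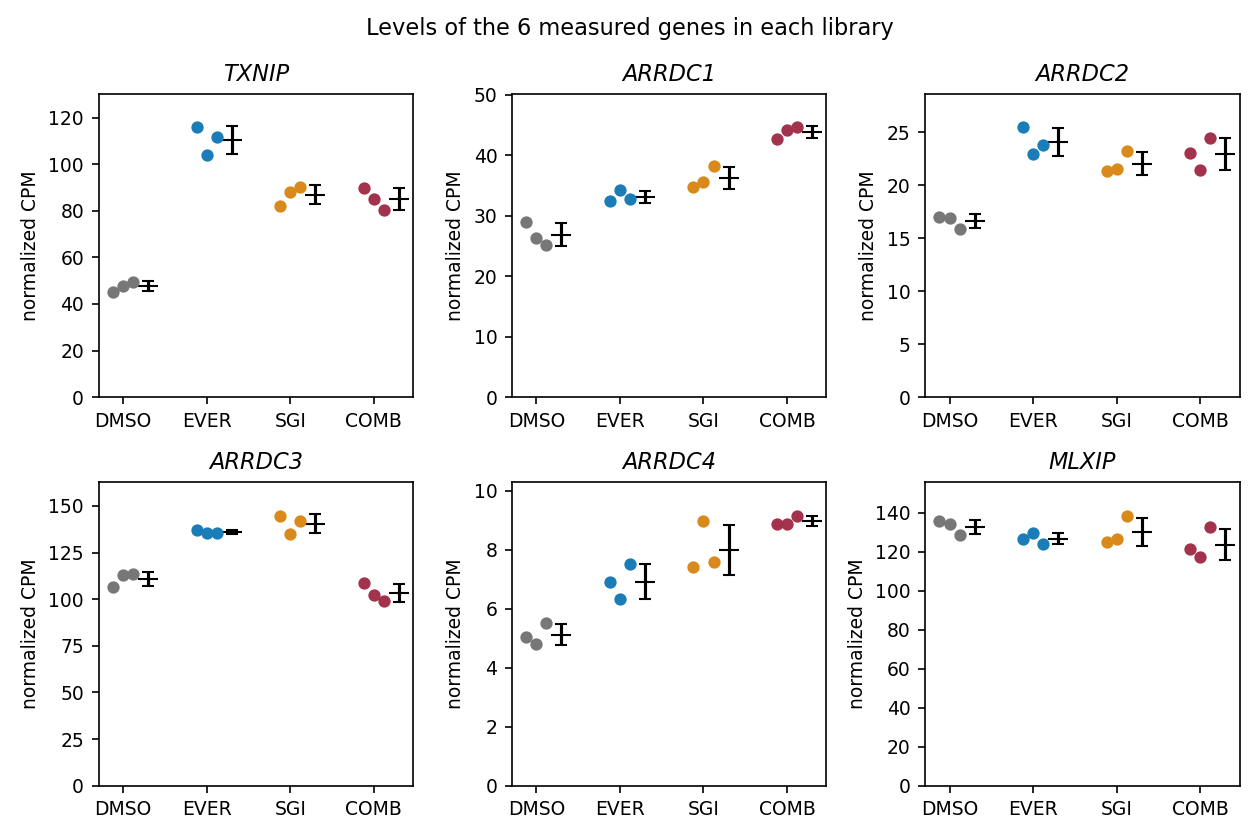
CPM of TXNIP, ARRDC1, ARRDC2, ARRDC3, ARRDC4 and MLXIP on linear axes from 0, with 1 dot for each library, 3 for each treatment group, and a black bar for the mean ± SD. TXNIP was highest with everolimus alone, ARRDC1 and ARRDC4 had their highest means with both drugs, ARRDC3 with both drugs overlapped DMSO and lay below either single drug, and MLXIP overlapped throughout.

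Of the 2 regulator genes, MLXIP showed no comparable pattern in its RNA, and MLXIPL had too few counts to show one. MLXIP, the gene of MondoA, had CPM of 135.6, 134.1 and 128.9 in DMSO, 126.8, 129.5 and 124.1 with everolimus, 125.3, 126.5 and 138.5 with SGI-1027, and 121.5, 117.1 and 132.7 with both drugs. All 4 groups of MLXIP overlapped. Its log2 fold changes from DMSO were -0.07, -0.03 and -0.10, each ± 0.05 (SE), and none was called. The value for the combination passed the threshold without COMB replicate 3 (-0.16), without SGI replicate 3 (-0.10) and without a filter on low counts (-0.12). In FPKM, MLXIP in DMSO (15.2 ± 0.52, SD, n = 3) was at about the level of TXNIP. MLXIPL, the gene of ChREBP, had 1 count in each of EVER replicate 1, SGI replicate 2 and SGI replicate 3 and 0 in the 9 other libraries. ARRDC5 had 2 counts in EVER replicate 3, 1 in SGI replicate 3 and 0 elsewhere. Neither was detectable beyond these counts at this depth, and no fold is given for either.

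**Figure D2:**
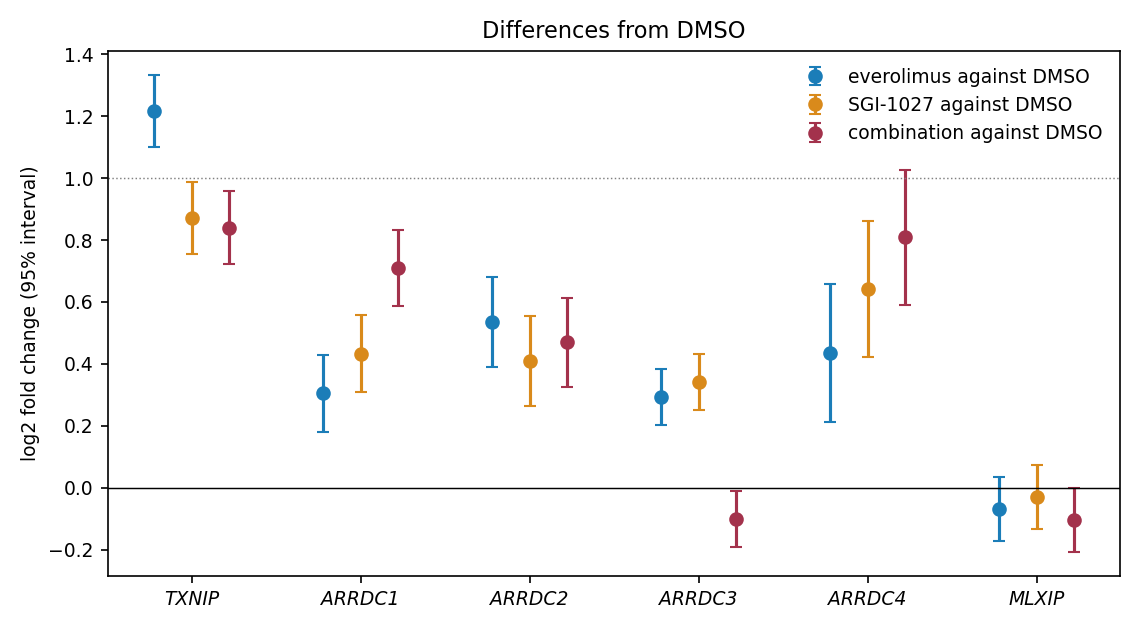
Fitted log2 fold change from DMSO of the 6 tested genes, with bars for the 95% interval, for everolimus (blue), SGI-1027 (orange) and both drugs (red). The dotted line marks a log2 fold change of 1, which was exceeded by the estimate of TXNIP with everolimus (1.22) and by no other estimate.

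A gene was called where the edgeR quasi-likelihood test gave an adjusted p under 0.05 over all tested genes. Of the 6 tested genes, 5 were called higher with everolimus (background 27.2% of all tested genes called higher), 5 higher with SGI-1027 (32.0%), and 4 higher (32.8%) and 1, ARRDC3, lower (33.4%) with both drugs. Against everolimus alone, the combination had 2 called higher, ARRDC1 and ARRDC4 (20.1%), and 2 called lower, TXNIP and ARRDC3 (19.2%). Against SGI-1027 alone, ARRDC1 was called higher (9.40%) and ARRDC3 lower (10.2%). These counts are set beside their backgrounds without further reading, since the genes were chosen with these contrasts known. Libraries of 5, 5 and 4 of the 6 genes lay wholly above DMSO with everolimus, SGI-1027 and both (background 30.6%, 32.5% and 34.5%). With both drugs, 2 lay wholly above everolimus alone (27.0%) and 2 below (27.2%), and 1 above SGI-1027 alone (17.1%) and 1 below (17.5%). The median log2 fold change of the 6 tested genes was 0.37, 0.42 and 0.59 with everolimus, SGI-1027 and both, against 0.00, 0.02 and 0.01 over all tested genes. The study's cut-off for differentially expressed genes needs an unadjusted p under 0.05 together with a log2 fold change of 1 or more in size. By it TXNIP with everolimus was the 1 call among the 3 comparisons with DMSO, where 3.89% of all tested genes were called higher. Upper-quartile scaling shifted the median of all genes by 0.07 with everolimus and turned the split of all genes from 3488 higher and 3749 lower to 4480 and 2901, while the direction and call of TXNIP and the 4 ARRDC genes with everolimus were the same.

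The interaction asks how far the value with both drugs lies from the 2 single-drug log2 fold changes added together. For TXNIP that sum was 2.09 and the combination reached 0.84, an interaction of -1.25 with a 95% interval of -1.41 to -1.08. For ARRDC3 the sum was 0.63 and the measured value -0.10, an interaction of -0.74 (-0.86 to -0.61). For ARRDC2 they were 0.94 and 0.47, an interaction of -0.48 (-0.68 to -0.27). The interaction of ARRDC1 was -0.03 (-0.20 to 0.14), that of ARRDC4 -0.27 (-0.57 to 0.04) and that of MLXIP 0.00 (-0.15 to 0.14). These intervals are a description, since the genes were chosen with these contrasts known. TXNIP, ARRDC3 and ARRDC2 were called lower, against a background of 22.1%, and none of the 6 was called higher (23.6%). TXNIP was also lower by the study's cut-off, against 4.63%. Neither count is read further, for the reason given above. Under upper-quartile scaling the split of all genes in the interaction went from 3028 higher and 2833 lower to 2335 and 3578, and the calls of these 3 genes were the same. The stated conflict over the dose of everolimus alone applies to each of these values.

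**Figure D3:**
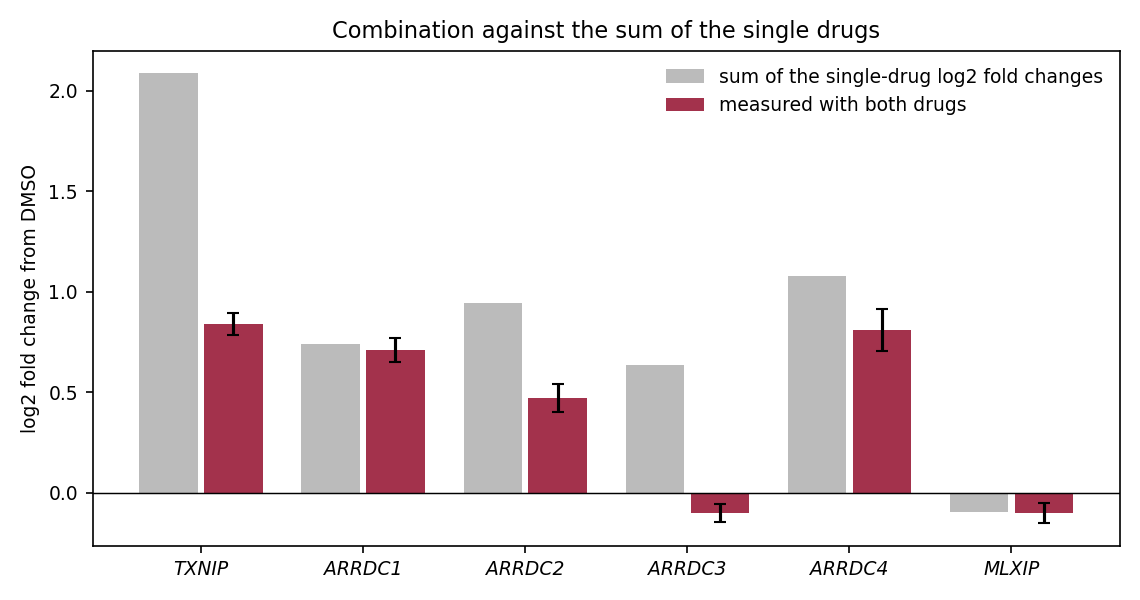
Difference from DMSO of the 6 tested genes, on the log2 scale, with both single-drug values added (grey) and as measured with both drugs (red, bars ± SE), on an axis that includes 0. TXNIP shows the widest gap, 2.09 against 0.84, and ARRDC1 almost none, 0.74 against 0.71.

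The strandedness of the counts was not settled, since the labels name a SMARTER library kit and the study's methods a TruSeq Stranded one. In GENCODE 29, ARRDC1 overlaps ARRDC1-AS1 and ARRDC3 overlaps ARRDC3-AS1 on the opposite strand, ARRDC2 overlaps AC020904.3 on the opposite strand, and ARRDC1 also overlaps AL590627.2 on its own strand. These overlaps were read from whole gene spans and not from exons. None of these 4 genes has a row in the count table, and whether any of their reads were counted for the ARRDC genes was not determined. Within groups, DMSO replicate 1 and SGI replicate 3 stood apart, with a chi-square per gene of 10.1 to 16.0 against the other libraries of their group, compared with 3.0 to 5.41 for the other pairs. Without both libraries the numbers of these genes called were the same in all 6 contrasts. All 6 of the kidney and 786-O markers looked for were detected. Their summed CPM was 7979 to 8396 in DMSO and 8840 to 9692 in treated libraries. Most of that sum was VIM, with means of 5954 CPM in DMSO and 7117 to 7293 in treated groups. KRT8 was lower in treated groups (means 943 to 1117) than in DMSO (1232). The means of PAX2 were 15.7 to 18.6 in treated groups against 19.1 in DMSO. Its libraries with everolimus (17.3 to 18.2) and SGI-1027 (17.3 to 20.5) lay within the DMSO range (16.9 to 22.4). Those with both drugs (15.2 to 16.8) lay just below that range. The means of PAX8, EPAS1 and KRT18 differed from DMSO in a direction that varied between treatments. Markers of blood, endothelial and liver cells summed to at most 0.378 CPM, with PTPRC and CD3E at no more than 1 count.

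The likeness of other genes to TXNIP was measured as Pearson's r of log2 CPM over the 12 libraries, among the 11464 genes that averaged 50 counts or more. The 5 most alike were CTHRC1 (r = 0.986), a secreted protein of collagen matrix, PDCD4 (0.984), an inhibitor of translation that is degraded downstream of mTOR, IMPACT (0.984), an inhibitor of the kinase GCN2, DNAJB2 (0.982), a co-chaperone, and YPEL1 (0.982). Among the other arrestins, ARRDC2 ranked 146 with r = 0.937, followed by ARRDC4 (0.690), ARRDC1 (0.592) and ARRDC3 (0.529), and MLXIP had r = -0.428. The 12 points share 4 groups, so r describes mainly the likeness of group means, and no more is drawn from it.

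YPEL1 differed most of these 5 in the edgeR fit, with log2 fold changes of 2.98, 2.40 and 2.37 for everolimus, SGI-1027 and both, from a mean CPM of 0.652 in DMSO. On the log2(FPKM + 1) scale, which understates changes of low genes, these were 0.93, 0.65 and 0.64. PDCD4 differed by 1.43, 1.12 and 1.16 from a mean of 19.9 CPM in DMSO. CTHRC1 differed by 1.0, 0.69 and 0.63. DNAJB2 and IMPACT had smaller values, between 0.38 and 0.61. As in TXNIP, everolimus alone gave the highest value in each of the 5, which the rule of likeness selects for.

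**Figure D4:**
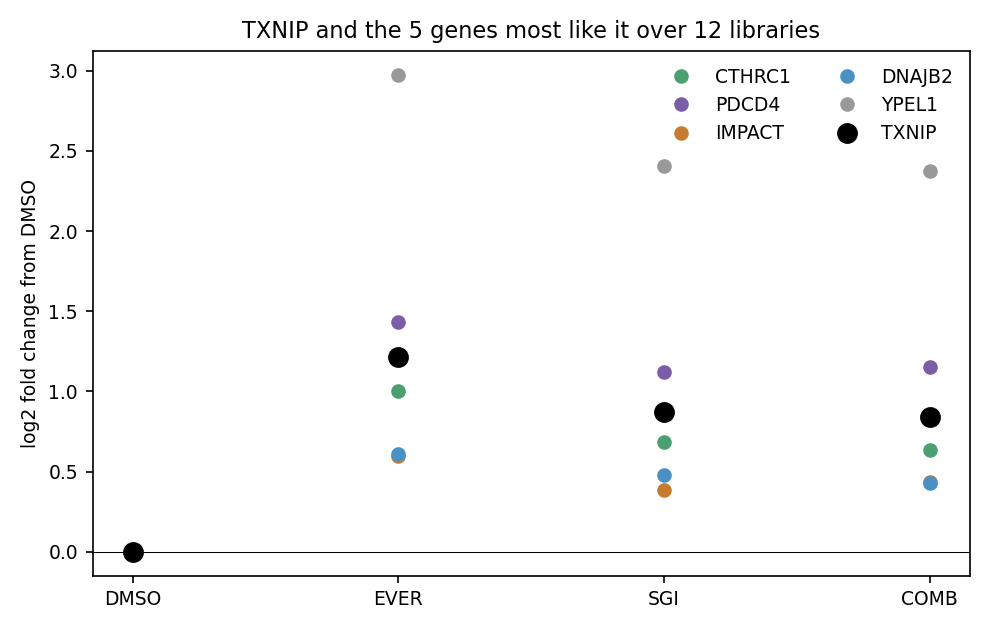
Log2 fold change from DMSO of TXNIP (large black dots) and of the 5 genes most like it in each treatment group, with DMSO at 0. All 6 genes were highest with everolimus alone, where YPEL1 reached 2.98 and TXNIP 1.22.

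Partner and pathway genes were taken as 7 lists, 55 of whose 64 genes in the table were tested. Of the 55, everolimus gave 17 called higher and 17 lower (23 and 13 under upper-quartile scaling), against a background of 27.2% and 29.2%. SGI-1027 gave 23 and 15 (32.0% and 30.6%), and both drugs 27 and 17 (32.8% and 33.4%). Calls in either direction thus numbered 34, 38 and 44, or 61.8%, 69.1% and 80.0% of the 55, beside a background of 56.4%, 62.6% and 66.2% of all tested genes, and the difference between these shares was not tested. By the study's cut-off 6, 3 and 3 were called (4.79%, 7.33% and 9.96%). Median log2 fold changes over the lists were 0.01, 0.09 and 0.16. The counts for single lists below stand beside the same backgrounds and are not read as results about a list. Adjusted p values below are from the edgeR fit over all tested genes. The genes they belong to had the smallest p of their list with both drugs or were named after their values were seen. These p values are therefore a description and lend no support to the choice.

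The list of MLX and its other partners had 4 tested genes, of which 3 rose with every treatment and 1, MLX, fell with either single drug. MXD4, a repressor of the MAD family, had 29.5 to 32.1 CPM in DMSO, 82.6 to 90.9 with everolimus, 74.7 to 79.8 with SGI-1027 and 60.7 to 71.2 with both, log2 fold changes of 1.51 ± 0.06 (SE), 1.35 ± 0.06 and 1.10 ± 0.06. Like TXNIP it was highest with everolimus, and like those of ARRDC1 its groups did not overlap. MNT, a related repressor, rose by 0.62, 0.88 and 0.89, and MXD1 by 0.61, 0.84 and 0.80 (0.20, 0.30 and 0.29 on the log2(FPKM + 1) scale), with edgeR adjusted p of at most 0.00315. MLX itself, named after its values were seen, fell with everolimus, from 28.9 to 31.6 CPM in DMSO to 22.1 to 23.5 (log2 fold change -0.39 ± 0.06, edgeR adjusted p = 2.85e-05). Its values with SGI-1027 (-0.14, edgeR adjusted p = 0.0455) and with both (-0.08, edgeR adjusted p = 0.219) were smaller, and the former lost its call in 9 of 12 fits that left out 1 library: those without DMSO replicate 2 or 3, any EVER library, any SGI library or COMB replicate 1 (edgeR adjusted p 0.0521 to 0.197).

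Other targets of MondoA and ChREBP were called in both directions, as were all tested genes. Of 11 tested, 2 rose and 4 fell with everolimus (background 27.2% and 29.2%). With SGI-1027 3 rose and 2 fell (32.0% and 30.6%), and with both 6 rose and 3 fell (32.8% and 33.4%). TKFC, a kinase of dihydroxyacetone and glyceraldehyde, rose by 1.08, 0.91 and 0.91 (SE 0.06 each), from 14.2 to 14.7 CPM in DMSO to 25.9 to 32.1 in treated libraries. The fatty acid synthesis genes of the list differed in direction. ACACA, the carboxylase that makes malonyl-CoA, fell by 0.46, 0.48 and 0.49 on the log2 scale, and ELOVL6, a fatty acid elongase, by 0.56, 0.64 and 0.71 (edgeR adjusted p of at most 2.98e-08 for both). FASN, the fatty acid synthase, and SCD, a desaturase, both named after their values were seen, fell with everolimus alone and rose with both drugs. FASN fell by 0.35 with everolimus, differed by -0.06 with SGI-1027 (edgeR adjusted p = 0.178, called without DMSO replicate 1 and SGI replicate 3 together at -0.09) and rose by 0.23 with both. SCD fell by 0.45 with everolimus and rose by 0.27 with SGI-1027 (0.18 without DMSO replicate 1 and SGI replicate 3 together) and 0.54 with both.

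HK2, the hexokinase that phosphorylates glucose, ran opposite to TXNIP. It had 68.7, 74.9 and 74.9 CPM in DMSO, 29.8, 30.9 and 32.3 with everolimus, 44.3, 41.1 and 40.1 with SGI-1027, and 45.5, 44.5 and 48.2 with both drugs. It thus fell by 1.23, 0.80 and 0.66 on the log2 scale, most with everolimus alone (SE 0.05 to 0.06, edgeR adjusted p of at most 5.62e-09). HK1, its constitutive relative, fell by 0.39, 0.40 and 0.31. SLC2A3, a glucose transporter, differed by 0.03 with everolimus (edgeR adjusted p = 0.676) and rose by 0.55 with SGI-1027 and 0.90 with both. Of the other transporters of the list, SLC2A10 and SLC2A12 were the 2 that rose with everolimus and are named after their values were seen. SLC2A6 (-0.18, -0.25 and -0.23) and SLC2A8 (-0.32, -0.50 and -0.45), also named after their values were seen, were called lower with every treatment. The alternatives were not read for SLC2A6 and SLC2A8. SLC2A12 had 7.17 to 7.83 CPM in DMSO, 17.1 to 17.8 with everolimus, 12.7 to 13.7 with SGI-1027 and 10.8 to 12.7 with both, and rose by 1.23, 0.82 and 0.62. SLC2A10, with 30 to 43 counts in DMSO libraries, rose by 1.26, 1.14 and 1.06 (SE 0.20 each). On the log2(FPKM + 1) scale SLC2A12 rose by 0.71, 0.44 and 0.34 and SLC2A10 by 0.24, 0.21 and 0.19. SLC2A1, the transporter that TXNIP brings into endocytosis, named after its values were seen, had 747 to 756 CPM in DMSO and 753 to 756 with everolimus. It rose by 0.22 with SGI-1027 and 0.16 with both, while its value of 0.01 with everolimus was called under upper-quartile scaling alone (0.08). Of the 9 tested genes of glucose entry and phosphorylation, 2 rose and 4 fell with everolimus, and 4 rose and 4 fell with SGI-1027 and with both.

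Genes of the thioredoxin system were also called in both directions. Of its 10 tested genes, 4 rose and 3 fell with everolimus (background 27.2% and 29.2%). The numbers were 4 and 4 with SGI-1027 (32.0% and 30.6%), and 5 and 4 with both drugs (32.8% and 33.4%). The mitochondrial peroxiredoxin PRDX3 fell by 0.47, 0.73 and 0.82 on the log2 scale, and the mitochondrial thioredoxin TXN2 fell by 0.18, 0.25 and 0.43. PRDX5, a peroxiredoxin of several compartments, rose by 0.38, 0.63 and 0.73. For these 3 genes the difference was smallest with everolimus, unlike that of TXNIP, and largest with both drugs. TXN, the cytosolic thioredoxin that TXNIP binds, named after its values were seen, had 228 to 261 CPM in DMSO and differed by -0.02 with everolimus, -0.18 with SGI-1027 and 0.00 with both. The value with everolimus was called without DMSO replicate 1 and SGI replicate 3 together (-0.08). The value with SGI-1027 was called (edgeR adjusted p = 0.0106), and the call was lost without DMSO replicate 2 or 3 or SGI replicate 3 (edgeR adjusted p 0.0519 to 0.0593) and under upper-quartile scaling (0.0706).

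Among the 9 ubiquitin ligases of the NEDD4 family, to which the arrestins bind through PY motifs, 2 rose and 2 fell with everolimus, 5 and 2 with SGI-1027, and 5 and 3 with both. NEDD4L differed by 0.10 with everolimus (edgeR adjusted p = 0.164, but 0.0174 under upper-quartile scaling and 0.00564 without DMSO replicate 1 and SGI replicate 3 together) and rose by 0.34 and 0.52 with SGI-1027 and both. SMURF2 rose by 0.20 with SGI-1027 and 0.48 with both, and its 0.14 with everolimus (edgeR adjusted p = 0.0475) lost the call without EVER replicate 1 or 2, DMSO replicate 2 or 3, SGI replicate 2 or COMB replicate 1 or 2 (edgeR adjusted p 0.0526 to 0.174). WWP1 fell by 0.27 with SGI-1027 and 0.41 with both, and its -0.17 with everolimus (edgeR adjusted p = 0.00408) lost the call under upper-quartile scaling (-0.09).

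Of 7 tested cargo and partner genes of the ARRDC proteins, 2 rose and 1 fell with each treatment. ITGB4, the integrin β4 that ARRDC3 targets, was scarce, with 9 to 21 counts in DMSO libraries and 24 to 48 in treated ones. It rose by 1.28 ± 0.32 (SE) with everolimus and 1.59 ± 0.31 with SGI-1027, while its 0.91 ± 0.33 with both drugs (edgeR adjusted p = 0.0222) lost the call without DMSO replicate 2 or 3 or COMB replicate 3 (edgeR adjusted p 0.0752 to 0.104). The 3 values of ITGB4 were 0.10, 0.14 and 0.07 on the log2(FPKM + 1) scale, where the last lost the call (limma adjusted p = 0.0638), and 0.59, 0.78 and 0.40 on the log2(FPKM + 0.1) scale. SLC11A2, an iron transporter regulated by ARRDC1 and ARRDC4, rose by 0.16 with SGI-1027 and 0.22 with both. Its 0.14 with everolimus (edgeR adjusted p = 0.0146) lost the call without DMSO replicate 1 (edgeR adjusted p = 0.0585) or EVER replicate 3 (0.0537). VPS4A, the ATPase that ARRDC1-dependent budding uses, fell by 0.25, 0.29 and 0.24.

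The β-arrestin ARRB1, a relative of these proteins that binds activated receptors, fell by 0.45, 0.43 and 0.42 on the log2 scale (SE 0.05 each). ARRB2 fell by 0.37 with everolimus and 0.27 with both, and differed by -0.07 with SGI-1027 (edgeR adjusted p = 0.456). VPS26C, an arrestin-fold subunit of the retriever complex, rose by 0.32 with SGI-1027 and 0.48 with both. Its 0.13 with everolimus (edgeR adjusted p = 0.0224) lost the call without DMSO replicate 1 or 3 or EVER replicate 3 (edgeR adjusted p 0.0657 to 0.0984). Of the 5 tested genes of this list, 2 rose with each treatment, and 2, 1 and 2 fell with everolimus, SGI-1027 and both.

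**Figure D5:**
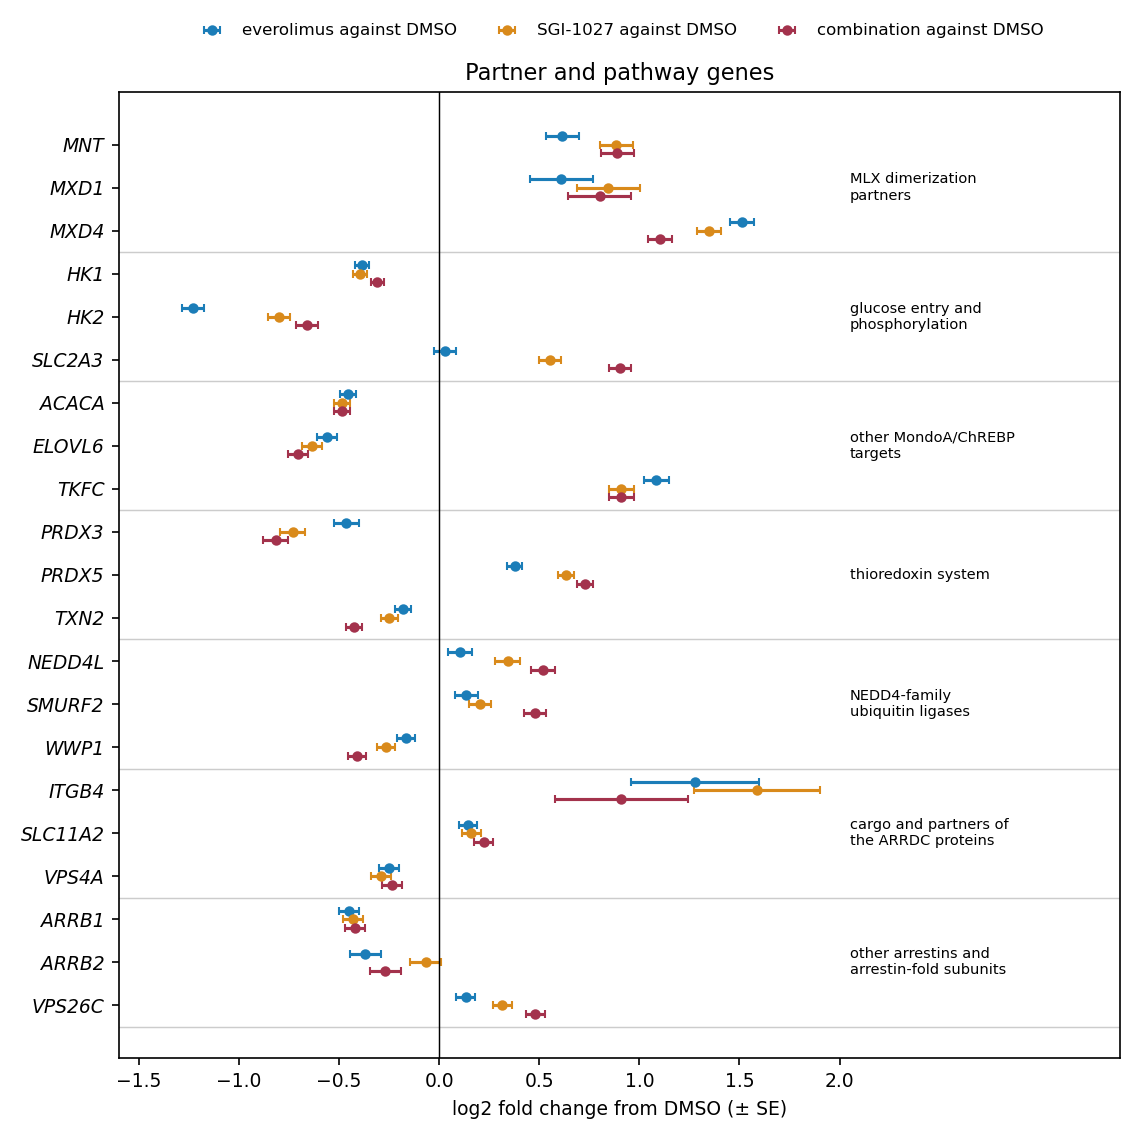
Log2 fold change from DMSO (± SE) of the 3 genes of each of the 7 lists with the smallest p in the combination, for everolimus (blue), SGI-1027 (orange) and both drugs (red). MXD4 and HK2 carry their largest differences with everolimus alone, 1.51 and -1.23, as TXNIP does, whereas those of SLC2A3 and PRDX3 came with both drugs.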

How the data were processed

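RNA of 786-O cells was sequenced in 4 groups of 3 libraries. Per gene symbol the authors deposited raw counts, which are whole numbers, and FPKM values, which they scaled by gene length and library size. The aligner, counter and annotation are not given in the sources used here, and the submitters' processing notes list GRCm38 and mm10, which are mouse builds, for these human samples. Labels and the study's methods also differ on extraction and library kit. Totals were 37046231 to 41516976 counts per library, and errors rest on 3 libraries per group.

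Analysis of the counts used edgeR 4.0.16 in R 4.3.3. Genes were filtered with filterByExpr on the 4 groups (12841 of 17085 tested), scaled with TMM factors (0.99 to 1.01) and fitted in 1 quasi-likelihood model of 12 libraries, with no term beside group and a prior count of 0.125. A gene was called at a Benjamini-Hochberg adjusted p under 0.05 over all tested genes. The procedure was also run on simulated data in which 200 genes were changed, in the combination group alone and evenly in both directions. Far more genes were called in the real data, so that run cannot speak for the scaling used here. CPM were normalized by TMM, and their errors are SDs, whereas errors of fold changes are standard errors. Alternatives were upper-quartile factors, DESeq2 1.42.0, no filter (at least 1 count), at least 10 counts in every library, a replicate block, fits of 2 groups, limma 3.58.1 on log2(FPKM + 1) and log2(FPKM + 0.1), each library left out, and the study's cut-off. The fit without DMSO replicate 1 and SGI replicate 3 together was added after the data were seen.

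Genes and lists were chosen with earlier results of these data known. Named were all members, the 3 genes of each of 7 lists with the smallest p in the combination, and the 5 genes most like TXNIP with a mean of at least 50 counts. MLX, TXN, FASN, SCD, SLC2A1, SLC2A6, SLC2A8, SLC2A10 and SLC2A12 were named after their values were seen. Promoters came from RefSeq and overlapping genes from GENCODE 29.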

Additional observations from a re-analysis of the deposited data

Results flagged for a closer look

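For 3 genes the edgeR fit called the interaction, that is, a difference between the effect of 1 drug with and without the other. As the genes were chosen with these contrasts known, and 22.1% of all tested genes were called lower, the values are a description. The interaction was -1.25 on the log2 scale for TXNIP, -0.48 for ARRDC2 and -0.74 for ARRDC3. In each, the measured value with both drugs was below the sum of the single-drug values. The protocol text and the treatment label give different everolimus doses for everolimus alone, and the part of this in the interactions cannot be told apart.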

How the results depend on the processing

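The numbers of TXNIP, ARRDC and MLXIP genes called stayed within 1.5 times those given under every alternative but the study's cut-off, and so did those of the pathway genes. That cut-off, which asks for a log2 fold change of 1 or more in size, left 1 gene with everolimus, 0 with SGI-1027, 0 with both, 0 for the combination against everolimus, 0 for the combination against SGI-1027 and 1 in the interaction (TXNIP both times), and 6, 3 and 3 pathway genes. Of the single values of the 6 tested genes under the alternatives, 731 kept direction and call, 36 lost the call, 3 gained it and 16 changed sign, all of the last from values near 0.

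Sign changed for TXNIP in the combination against SGI-1027 (-0.0707 to 0.00775 with 1 library left out) and ARRDC1 in the interaction (-0.0859 to 0.0153). MLXIP changed sign under upper-quartile scaling with everolimus (0.0067) and SGI-1027 (0.0237), in the combination against everolimus (-0.0885 to 0.00268 with 1 library left out) and in the interaction (DESeq2 0.0039, no filter 0.0122, limma 0.0095 and 0.0099, without DMSO replicate 1 and SGI replicate 3 together 0.0275, 1 library left out -0.0579 to 0.0441). TXN changed sign with everolimus under upper-quartile scaling (0.0575) and with 1 library left out (-0.0778 to 0.0151), and with both drugs under upper-quartile scaling (0.0528), at least 10 counts (0.0098), limma (0.0197 and 0.0197) and with 1 library left out (-0.0640 to 0.0289). SLC2A1 with everolimus was -0.0033 without a filter. The cause of these changes was not tested. The log2(FPKM + 1) scale, which by its construction understates low genes, moved ARRDC4, YPEL1, ITGB4, MXD1, SLC2A10 and SLC2A12 by over 1.5 times. Upper-quartile scaling moved values with everolimus by over 1.5 times in SLC11A2 (0.22), SMURF2 (0.21), VPS26C (0.21), TXN2 (-0.11) and WWP1 (-0.09), and MLX with SGI-1027 (-0.09).

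Replicate numbers did not pair the libraries: the 18 same-number correlations were -0.341 to 0.0871, and 0 of 12 libraries correlated best with their own number. With the number as a replicate block, 5, 5 and 4 of the tested genes were called against DMSO, 4 and 2 in the combination against everolimus and SGI-1027, and 3 in the interaction, beside 33, 36 and 44 pathway genes. The named genes that lost a call under the block were ARRDC3 with both drugs, MLX with SGI-1027 and SMURF2 with everolimus. Depth limits ARRDC5 and MLXIPL, with at most 2 counts in a library, and widens the errors of ARRDC4 and ITGB4.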
